A study of Mus musculus with 9 samples.

Results

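Long intergenic non-coding RNAs (lincRNAs) were followed in mouse macrophages sorted from joints or cultured from marrow. The 162 lincRNAs described here were selected on their level: each has the gene type lincRNA in the GENCODE annotation of GRCm38, lies on an autosome, and reached a mean CPM of 2 in at least 1 of the 3 groups. CPM is the count divided by the library's total count, on the usual scale. They are 162 of 53465 genes in the count table and of 4603 autosomal lincRNAs, 3639 of which had no count in any library. Because levels in the same libraries chose them, reaching the threshold is a description and not a result.

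The 9 libraries form 3 groups of 3. Lining macrophages (libraries A, B and C) and interstitial macrophages (D, E and F) were sorted as CD45+CD11b+F4/80+ cells out of the hind paws of Cx3cr1-GFP mice without disease, in which green fluorescent protein (GFP) reports the fractalkine receptor gene. GFP-positive cells were taken as lining, the cell layer at the surface of the joint membrane, and GFP-negative cells as interstitial, from the tissue beneath it. Bone marrow-derived macrophages (BMDM, libraries G, H and I) were cultured from C57BL/6 marrow in medium conditioned with MCSF, the growth factor of macrophages, for 5 days. BMDM therefore differ from the sorted groups in the mice used, the tissue of origin and culture at once, and these cannot be told apart. The labels do not say whether the libraries of a group came from separate animals, so p-values measure the spread between these libraries.

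lincRNAs are capped and usually spliced transcripts that code for no known protein. Some build nuclear bodies, some bind and limit microRNAs or RNA-binding proteins, and some carry small RNAs that are cut out of them. For others it is transcription across the locus, and not the RNA made, that affects a neighbouring gene. Most are made at low levels and vary between cell types more than coding genes do.

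Libraries held 2194920 to 22499823 counts, with the fewest in lining A and interstitial D. All 8 sort and identity markers were detected, and their summed level was 6480 to 10979 CPM in the sorted libraries and 5166 to 5437 in BMDM. Cx3cr1, whose GFP reporter split the sorted groups, read 687, 775 and 663 CPM in lining and 2.66, 4.28 and 7.86 in interstitial. In BMDM it read 311, 236 and 287. Summed levels of other cells' markers differed between the groups. Dendritic cell markers (6 genes) summed to 3.88 to 40.5 CPM in lining and 89.3 to 141 in interstitial libraries, B cell markers (5 genes) to 64.9 to 96.5 and 136 to 379, and fibroblast markers (10 genes) to 200 to 710 in the sorted libraries against 12.7 to 15.6 in BMDM. Of the dendritic and B cell lists, only Cd209a (edgeR quasi-likelihood adjusted p = 0.0442) and Ighm (adjusted p = 0.0122) passed between lining and interstitial, both lower in lining. Ighm made up most of the B cell sums, with 68.9, 59.4 and 91.6 CPM in lining and 368, 204 and 127 in interstitial. The dendritic cell marker Flt3 read 0, 12.9 and 11.3 CPM in lining and 7.98, 9.37 and 13.4 in interstitial. Neutrophil markers (7 genes) summed to 0, 6.78 and 1.13 CPM in lining, 0, 78.6 and 75.8 in interstitial and 40.6 to 52.6 in BMDM. None of them passed between lining and interstitial. Of the endothelial and fibroblast lists, Pecam1 was lower in lining (edgeR quasi-likelihood adjusted p = 0.0446) and Pdpn higher (adjusted p = 0.0461). Cell cycle markers (5 genes) summed to 95.3 to 318 CPM in the sorted libraries and 2475 to 2682 in BMDM. Their part in the results below was not tested, and in such bulk samples fewer cells of a type and less RNA per cell cannot be told apart.

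The lincRNAs were sparse and short. From here on, CPM uses library sizes scaled by the trimmed mean method (TMM), as did the marker levels above. RPKM is the same value per kilobase of the gene length in the count table. The membership thresholds, the values given beside them and the floors of 3 counts use plain library totals. The median lincRNA had 3.0 CPM in each sorted group and 1.83 in BMDM. Tested protein-coding genes had medians of 29.8 in lining, 29.7 in interstitial and 31.7 in BMDM. Their median exon length was 2.02 kb and 34 of the 162 had a single exon, against 0.970 kb for the other autosomal lincRNAs and 4.43 kb for tested coding genes. RefSeq, matched by gene identifier or symbol, lists 98 of them as long non-coding, 11 as protein-coding, 1 as a transcribed pseudogene and has no match for 52. The 11 with a coding entry include 1810058I24Rik, Tmem250-ps, Gm14461, Gm9949, Zfp469 and Gpr141b, so the class lincRNA does not hold in every annotation.

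By the threshold, 48 lincRNAs were at or above 2 CPM in all 3 groups, 25 in both sorted groups only, 29 in lining only, 29 in interstitial only and 26 in BMDM only. A further 4 reached it in interstitial and BMDM and 1 in lining and BMDM. Nearest above the threshold were Gm9949 with 2.03, Gm29367 with 2.05 and Ino80dos with 2.06 CPM in their highest group, and nearest below it Gm10825 with 1.98, 4933406I18Rik with 1.96 and C030034I22Rik with 1.95.

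At the top of the range were a few named RNAs. Gm42418 took 0.240 to 0.812% of all counts in a library and held more than any other. It overlaps a ribosomal RNA repeat, so its counts are not read as those of a lincRNA. Without it the lincRNAs held 0.200 to 0.273% of the counts in the sorted libraries and 0.143 to 0.170% in BMDM, and these ranges do not overlap. Without Malat1 and Neat1 as well, the ranges were closer, at 0.121 to 0.143% and 0.0966 to 0.0999%, and did not overlap either. Both sets still hold Gm26917, which lies beside the same repeat. The choice of lincRNAs bears on this, since 103 reached the threshold in lining and 106 in interstitial against 79 in BMDM. Per kilobase the next highest in lining was Malat1 (chr19:5795690-5802672, minus strand), a nuclear RNA of splicing speckles, with 96.8 ± 15 RPKM (SD, n = 3) in lining, 69.7 ± 32 in interstitial and 63.1 ± 16 in BMDM. Malat1 libraries read 609, 795 and 622 CPM in lining, 328, 742 and 390 in interstitial and 499, 308 and 515 in BMDM. The groups overlapped except lining against BMDM, and no comparison passed the test (log2 fold change 0.62 ± 0.29 for lining over BMDM, edgeR quasi-likelihood adjusted p = 0.113).

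Neat1, the RNA on which paraspeckles assemble, lies 22 kb from Malat1 on the same strand. Its libraries read 275, 447 and 704 CPM in lining, 372, 548 and 560 in interstitial and 174, 138 and 160 in BMDM. Every sorted library exceeded every BMDM library. Neat1 was higher than in BMDM by 1.6 ± 0.29 on the log2 scale in lining (edgeR quasi-likelihood adjusted p = 0.00112) and by 1.65 ± 0.29 in interstitial (adjusted p = 8.57e-04), while lining and interstitial differed by -0.05 ± 0.28 (adjusted p = 0.948). Over the 9 libraries the lincRNAs most like Neat1 by Pearson correlation of log2 CPM were Gm36161 (0.96), AI504432 (0.95) and Gm29291 (0.94), as a description over libraries that share the difference between sorted and cultured cells.

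Between the lining and interstitial groups, which asks how 2 macrophage populations of the same tissue differ, 1 lincRNA was higher in lining and 1 lower. Of the 152 lincRNAs that passed the filter on low counts, the 2 called are 1.32%, beside 5.79% of all 12610 genes tested (3.74% higher and 2.05% lower in lining). A call is an adjusted p under 0.05 in edgeR's quasi-likelihood test, adjusted over all genes tested. Among lincRNAs with a mean under 5 CPM, 1 of 101 was called, and 1.70% of all genes of that level were. At 5 to 20 CPM none of 37 was called (DESeq2 called 5, limma-voom 2, and 9 had an unadjusted p under 0.05), against 3.45% of all genes, and at 20 CPM or more 1 of 14, against 8.01%. At an unadjusted p under 0.05 there were 22 lincRNAs, and the median log2 fold change of all 152 was -0.02, against -0.01 for all genes.

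AU020206 (chr7:75769038-75782099, minus strand, 3 exons) was the lincRNA higher in lining. Its libraries read 162, 117 and 123 CPM in lining, 12.4, 7.10 and 11.7 in interstitial and 69.4, 58.3 and 67.6 in BMDM. The 3 groups did not overlap at any point, with lining highest and interstitial lowest. AU020206 was higher in lining than in interstitial by 3.75 ± 0.24 on the log2 scale (edgeR quasi-likelihood adjusted p = 4.05e-06). Against BMDM it was higher in lining by 1.04 ± 0.20 (adjusted p = 0.00156) and lower in interstitial, at -2.71 ± 0.23 (adjusted p = 2.13e-06). These last 2 values share the BMDM libraries. At 42.0 ± 7.5 RPKM in lining it was among the lincRNAs of highest level there, and at 3.26 ± 0.90 in interstitial it was not. The nearest coding gene, Akap13, which encodes an anchoring protein of protein kinase A, ends 14.4 kb away on the opposite strand. Akap13 differed by 0.03 ± 0.16 between lining and interstitial (adjusted p = 0.950).

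The RefSeq promoter of AU020206 is printed because this is the lincRNA on which the lining and interstitial comparison turns. It spans 250 bases before to 50 after the RefSeq start (GRCm38.p6, chr7:75782071-75782370, minus strand), which lies 21 bases from the start in the count table. Capitals mark matches to a GC box (GGGCGG) and to CCAAT, which appears as ATTGG where it lies on the other strand.
AU020206: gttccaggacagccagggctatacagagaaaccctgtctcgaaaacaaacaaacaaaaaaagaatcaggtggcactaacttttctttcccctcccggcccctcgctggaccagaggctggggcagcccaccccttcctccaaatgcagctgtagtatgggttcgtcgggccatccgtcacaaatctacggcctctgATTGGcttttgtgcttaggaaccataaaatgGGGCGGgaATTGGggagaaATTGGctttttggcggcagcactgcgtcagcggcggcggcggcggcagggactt
This window holds 3 CCAAT matches, beginning at -54, -15 and -4 relative to the start, and 1 GC box at -23. Over all 32851 RefSeq promoters of this length 37.4% hold a CCAAT and 35.7% a GC box on either strand, so both are common.

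C030034L19Rik (chr3:9403064-9437233, plus strand) was the lincRNA lower in lining. It had no count in any of the 3 lining libraries, 6, 21 and 4 counts in interstitial and 131, 113 and 166 in BMDM. Interstitial was at least 9.34-fold higher than lining, taking 3 counts over the whole lining group as the floor (edgeR quasi-likelihood adjusted p = 0.0240). It was also lower in lining than in BMDM (BMDM at least 34.8-fold higher, adjusted p = 5.31e-04), and the interstitial value, -1.84 ± 0.70 against BMDM, did not pass (adjusted p = 0.0547). The call between the sorted groups was lost without lining B, interstitial E or any of BMDM G, H and I, with an adjusted p up to 0.0915. With 31 interstitial counts in all, its level there is thin.

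Other lincRNAs lay apart between the sorted groups without passing. By correlation of log2 CPM over the 9 libraries, the 3 most like AU020206 were Gm14461 (0.93), Gm43672 (0.83) and 4930440I19Rik (0.81). Gm14461 and 4930440I19Rik are neighbours, 43.1 kb apart on the same strand of chromosome 2. Gm14461 had 11, 8 and 5 counts in lining, none in interstitial and 14, 13 and 14 in BMDM, and was not tested because it did not pass the filter. 4930440I19Rik had 27, 15 and 7 counts in lining, 0, 6 and 0 in interstitial and 22, 17 and 20 in BMDM, and differed between lining and interstitial by 4.31 ± 1.27 on the log2 scale (edgeR quasi-likelihood adjusted p = 0.0740). Gm43672 differed by 2.84 ± 0.92 (adjusted p = 0.104). DESeq2 called all 3 of these, among 14 lincRNAs it called, and limma-voom called Gm43672 among 8, so the number of lincRNAs past the threshold in this comparison turned on the tool. Over all genes tested the 3 tools called 5.79%, 9.83% (DESeq2) and 7.61% (limma-voom).

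**Figure D1:**
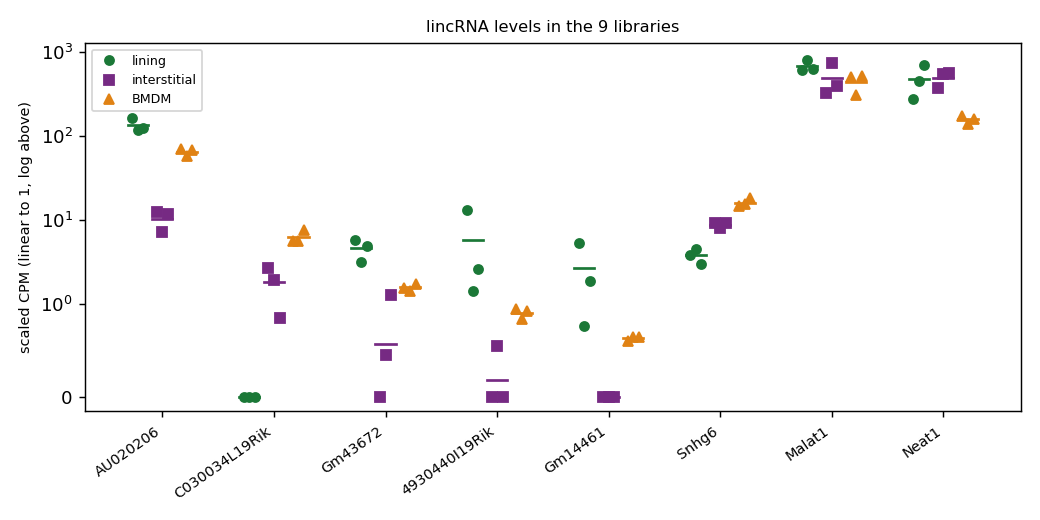
Scaled CPM of 8 lincRNAs in each library (points, 3 per group) with the group mean (bars), on an axis that is linear to 1 and logarithmic above. AU020206 separates all 3 groups, C030034L19Rik is at 0 in the 3 lining libraries, and the sorted groups overlap for Malat1 and Neat1.

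Lining macrophages differed from BMDM at many lincRNAs. There 37 were higher and 20 lower in lining, together 57 of 152 or 37.5%, beside 43.5% of all genes (23.1% higher and 20.5% lower). Interstitial macrophages had 38 higher and 16 lower, together 54 or 35.5%, beside 44.8% of all genes (23.4% higher and 21.3% lower). The median log2 fold change was 0.81 for lining and 0.73 for interstitial, where all genes had 0.00 and -0.01. The choice of lincRNAs bears on these medians, which were 0.62 and 0.39 over those at the threshold in both groups compared. Both comparisons use the same BMDM libraries. lincRNAs that reached the threshold in 1 of the 2 groups compared had to differ, so their counts say nothing of the class. Of the 49 at the threshold in both lining and BMDM, 16 were called higher and 4 lower in lining. Of the 52 at the threshold in both interstitial and BMDM, 13 were called higher and 3 lower in interstitial. The share called grew with level: under 5 CPM 26.7% of lincRNAs were called in lining against BMDM and 30.7% of all genes, at 5 to 20 CPM 56.8% and 36.2%, and at 20 CPM or more 64.3% (9 of 14) and 50.5%.

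**Figure D2:**
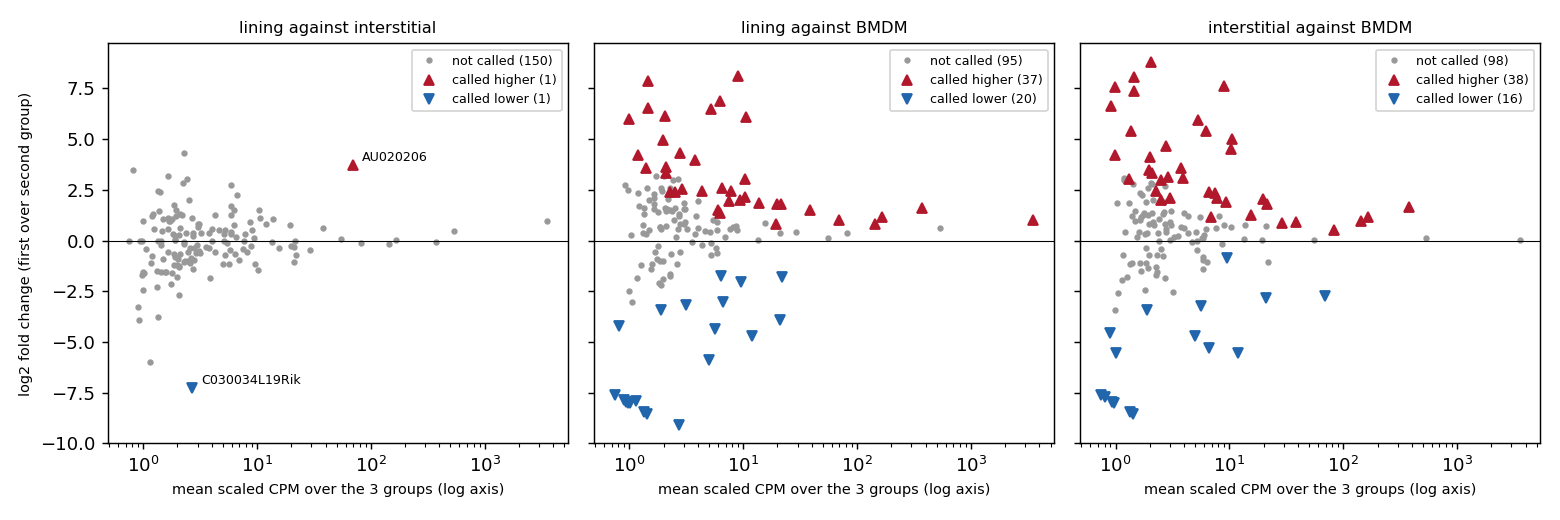
Log2 fold change (vertical) of the 152 tested lincRNAs against their mean scaled CPM over the 3 groups (log axis), in the 3 comparisons. Triangles mark called lincRNAs, which number 1 higher and 1 lower between lining and interstitial and 57 and 54 against BMDM.

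In all, 26 lincRNAs were called higher in both sorted groups than in BMDM, 17.1% of the 152 tested beside 18.3% of all genes, with log2 fold changes of 0.79 to 8.12 in lining and 0.90 to 8.83 in interstitial. Gm29291, which has no known role, changed most in lining. Its libraries had 15, 126 and 77 counts in lining, 19, 188 and 35 in interstitial and 1 in each BMDM library. Lining stood 285-fold above BMDM (95% counting interval 96.3 to 1393) and interstitial 286-fold (96.7 to 1397), with edgeR quasi-likelihood adjusted p = 6.44e-06 and 9.93e-06. Its nearest coding gene, Glul, which encodes glutamine synthetase, is 93.7 kb away and was higher than in BMDM too, by 3.33 ± 0.24 in lining.

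AI427809 read 21.8, 21.4 and 21.4 CPM in lining, 5.76, 14.6 and 9.13 in interstitial and 0.562, 0.149 and 0.184 in BMDM. The 3 groups did not overlap. It was higher than in BMDM by 6.10 ± 0.59 on the log2 scale in lining and by 5.01 ± 0.57 in interstitial (edgeR quasi-likelihood adjusted p = 5.71e-06 and 2.16e-05). The lining and interstitial levels differed by 1.09 ± 0.47, which did not pass (adjusted p = 0.223). Abca1, the cholesterol exporter, is the nearest coding gene at 101 kb, and it was higher in lining than in BMDM by 5.55 ± 0.24.

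Gm41307 and Gm10605 had a like pattern at lower levels. Gm41307 had 35, 102 and 41 counts in lining, 2, 74 and 30 in interstitial and 5, 2 and 0 in BMDM, and was higher by 6.88 ± 0.96 in lining and 5.38 ± 0.93 in interstitial. Gm10605 had 21, 121 and 15 counts in lining, 27, 57 and 12 in interstitial and 3, 2 and 1 in BMDM, and was higher by 6.47 ± 0.84 and 5.94 ± 0.84. The edgeR quasi-likelihood adjusted p of these 4 values was 5.70e-04 or less. Gm10605 overlaps the coding gene Tpbgl on the opposite strand. Tpbgl was higher than in BMDM by 5.51 ± 0.28 in lining and 3.18 ± 0.26 in interstitial. It was also higher in lining than in interstitial, by 2.33 ± 0.24 (adjusted p = 1.44e-04), where Gm10605 differed by 0.53 without a call. Gm38843 had 4, 47 and 17 counts in lining, 4, 29 and 0 in interstitial and 1, 5 and 2 in BMDM, and was higher by 4.97 ± 1.24 in lining (adjusted p = 0.00666) and 3.47 ± 1.2 in interstitial (adjusted p = 0.0337). Its interstitial call was lost without lining B, interstitial E or any BMDM library, up to an adjusted p of 0.224.

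Cyrano (1700020I14Rik), a conserved RNA that directs the decay of the microRNA miR-7, was also in this group, at a smaller difference and a high level. Its libraries read 152, 135 and 190 CPM in lining, 205, 188 and 143 in interstitial and 94.1, 89.9 and 90.6 in BMDM. Every sorted library was above every BMDM library. The log2 fold change was 0.79 ± 0.16 in lining and 0.96 ± 0.16 in interstitial (edgeR quasi-likelihood adjusted p = 0.00219 and 5.36e-04). Gm26917, which lies 0.617 kb from Gm42418 beside the ribosomal RNA repeat, was higher by 1.18 ± 0.18 and 1.17 ± 0.18, and carries the same limit as Gm42418. Gm42418 itself was called higher in lining than in BMDM by 1.0 ± 0.34 (adjusted p = 0.0337) on 8646, 4616 and 2615 CPM in lining A, B and C. That call was lost without lining A, without lining B or without any BMDM library, with an adjusted p up to 0.169.

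Gm47675 and Gm17501 had no count in BMDM and were of higher level in interstitial than in lining libraries, without a call between those groups. Gm47675 had 25, 41 and 6 counts in interstitial and 3, 10 and 0 in lining. It was at least 85.1-fold higher in interstitial and at least 17-fold higher in lining than in BMDM (edgeR quasi-likelihood adjusted p = 0.00162 and 0.0125). The lining call was lost without lining B (adjusted p = 0.0591). Gm17501 had 15, 23 and 4 counts in interstitial and 1, 3 and 7 in lining, at least 49.6-fold and 14.4-fold above BMDM (adjusted p = 0.00296 and 0.0107). 4930477G07Rik had 7, 18 and 9 counts in interstitial, 0, 4 and 5 in lining and none in BMDM, which makes it at least 40.2-fold and 11.8-fold higher there (adjusted p = 0.00279 and 0.0120).

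A set of 12 lincRNAs was called higher in interstitial than in BMDM and not in lining, and 10 in lining and not in interstitial. These are 7.89% and 6.58% of those tested, beside 5.12% and 4.64% of all genes. None of these 22 was called between lining and interstitial (DESeq2 called 6, limma-voom 4, and 10 had an unadjusted p under 0.05), so a difference between the sorted groups is not shown for them. Gm9889 leads the first set with 6, 25 and 14 counts in interstitial, 0, 3 and 0 in lining and 0, 0 and 1 in BMDM. It stood 160-fold above BMDM in interstitial (95% counting interval 27.2 to 6441, edgeR quasi-likelihood adjusted p = 0.00116) and differed between the sorted groups by -3.90 ± 1.23 (adjusted p = 0.0943). Norad (2900097C17Rik), which binds Pumilio proteins, was higher in interstitial by 0.51 ± 0.17 (adjusted p = 0.0267). The Norad call was lost without interstitial D and without any BMDM library, up to an adjusted p of 0.108.

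BMDM had lincRNAs with no count in any sorted library. In 15 lincRNAs, 9.87% of those tested beside 15.6% of all genes, the level was lower in both sorted groups than in BMDM, with log2 fold changes of -2.05 to -8.55 in lining and -0.88 to -8.55 in interstitial. Of these, 2810455O05Rik had 91, 90 and 97 counts in BMDM and none in the 6 sorted libraries, so BMDM was at least 23.6-fold above lining and at least 26.1-fold above interstitial (edgeR quasi-likelihood adjusted p = 0.00349 and 0.00256). Gm10419 had 66, 81 and 112 counts in BMDM and none elsewhere, at least 22-fold and 24.3-fold higher. Gm42517, a coding gene that overlaps Gm10419 on the opposite strand, was also lower than in BMDM, at -8.75 in both sorted groups (adjusted p = 0.00283 and 0.00207). Gm6634 had 71, 52 and 67 and 4933424M12Rik 77, 38 and 69, again with none in sorted libraries, at least 16.1-fold and 15.6-fold above lining. Zfp469 had 61, 31 and 55 and none elsewhere, at least 12.5-fold above lining and 13.8-fold above interstitial, and its lining call was lost without BMDM G (adjusted p = 0.0513). 2010110K18Rik had 74, 50 and 71 counts in BMDM, none in lining and 1 in interstitial E, so that BMDM was at least 16.6-fold above lining (adjusted p = 0.00317). Gm14221 had 63, 54 and 36 in BMDM, 2 in lining B and none in the other sorted libraries, and BMDM was at least 14.4-fold above interstitial (adjusted p = 0.00407). Against lining the ratio was 19.5 (95% counting interval 5.31 to 162, adjusted p = 0.0171), a call lost without any of the 3 BMDM libraries, up to 0.0811.

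The promoters of Gm6634 and Gm17501 are shown as a pair, since the first lincRNA was counted only in BMDM and the second only in sorted cells. Both are RefSeq windows of GRCm38.p6, chr3:70807242-70807541 on the minus strand for Gm6634 and chr3:145649827-145650126 on the plus strand for Gm17501, and the Gm17501 start is 235 bases from that of the count table. Capitals mark, in Gm6634, matches to CCAAT, to the AP-1 motif TGANTCA and, on the other strand, to the PU.1 motif GAGGAAGT. In Gm17501 they mark, on the other strand, the GC box GGGCGG next to the motif TATAAA of a TATA box.
Gm6634: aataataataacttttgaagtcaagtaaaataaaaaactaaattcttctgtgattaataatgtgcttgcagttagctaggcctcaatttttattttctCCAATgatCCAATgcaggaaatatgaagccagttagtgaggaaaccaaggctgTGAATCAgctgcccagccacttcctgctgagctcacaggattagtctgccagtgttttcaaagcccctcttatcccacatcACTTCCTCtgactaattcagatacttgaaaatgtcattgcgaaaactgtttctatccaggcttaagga
Gm17501: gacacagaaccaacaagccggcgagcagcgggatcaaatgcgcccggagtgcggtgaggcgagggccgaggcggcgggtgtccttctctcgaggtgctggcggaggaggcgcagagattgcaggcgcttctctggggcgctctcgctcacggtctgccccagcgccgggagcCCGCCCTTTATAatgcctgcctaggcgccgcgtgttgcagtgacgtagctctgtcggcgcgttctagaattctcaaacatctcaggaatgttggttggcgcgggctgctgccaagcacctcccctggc
Gm6634 holds a PU.1 match at -18 and an AP-1 match at -99, and its window has 38.3% G and C bases. Gm17501 holds an adjoining GC box and TATA match on the other strand, at -78 and -72, and 65.3% G and C. The Gm17501 window also holds the start of the neighbouring gene Ccn1 (chr3:145649981, minus strand), and both matches lie on the Ccn1 strand. Letters of the Gm17501 promoter and of the Ccn1 promoter therefore cannot be told apart in this window. Of all RefSeq promoters 3.20% hold the PU.1 letters, 7.81% AP-1 and 13.6% TATA, and of the 90 lincRNAs matched to a promoter 7, 8 and 11 do. A match describes letters in the window and is not a bound site.

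Gm42031 and Gm43351 were the BMDM lincRNAs of high level. Gm42031 read 18.6, 41.9 and 38.6 CPM in BMDM, 3.88, 0.286 and 1.13 in lining and 3.55, 0.182 and 0 in interstitial, and was lower, with log2 fold changes of -4.72 ± 1.05 in lining and -5.53 ± 1.10 in interstitial (edgeR quasi-likelihood adjusted p = 0.00447 and 0.00221). Gm43351 read 17.9, 17.3 and 17.7 CPM in BMDM, 2.42, 3.34 and 0 in lining and 0, 0.0910 and 1.27 in interstitial, and was lower, at -3.03 ± 0.81 and -5.30 ± 0.98 (adjusted p = 0.00950 and 9.16e-04). In neither did a sorted library reach a BMDM library.

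**Figure D3:**
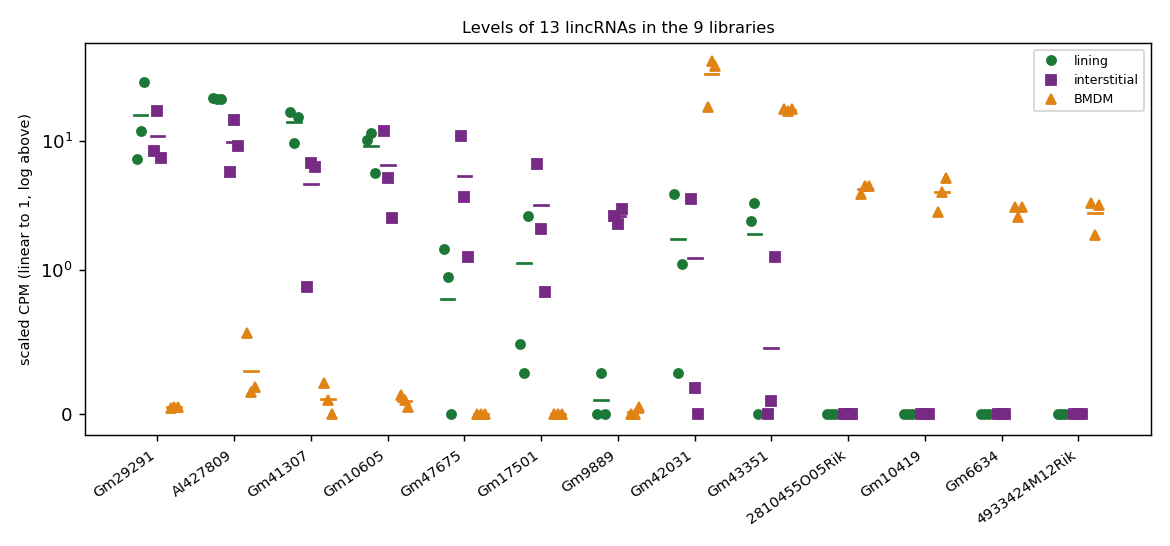
Scaled CPM of 13 lincRNAs in each library (points, 3 per group) with group means (bars), on an axis that is linear to 1 and logarithmic above. The 6 at the right are highest in BMDM, and 4 of them have no count in any sorted library. Gm47675 and Gm17501 have none in BMDM.

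Of the lincRNAs of high level per kilobase, Tmem250-ps, which RefSeq lists as protein-coding, and Gm26532 were called higher than BMDM in both sorted groups. Tmem250-ps read 79.5, 51.9 and 40.5 CPM in lining, 29.7, 40.3 and 42.1 in interstitial and 20.8, 19.3 and 20.5 in BMDM, with log2 fold changes of 1.5 ± 0.25 and 0.90 ± 0.25 (edgeR quasi-likelihood adjusted p = 4.89e-04 and 0.0110). Its interstitial call was lost without BMDM H (adjusted p = 0.0503). Gm26532 read 5.82, 18 and 14.6 CPM in lining, 4.43, 11.6 and 19.8 in interstitial and 2.98, 3.63 and 3.18 in BMDM, and was higher by 2.01 ± 0.54 and 1.90 ± 0.54 (adjusted p = 0.0104 and 0.0129). The lining call of Gm26532 was lost without lining B (adjusted p = 0.0653) and the interstitial one without interstitial F, BMDM G or BMDM I, up to 0.0617. In both lincRNAs every sorted library was above every BMDM library. 1810058I24Rik, which RefSeq lists as protein-coding, read 63.0, 62.6 and 48.1 CPM in lining, 43.4, 45.9 and 72.6 in interstitial and 50.8, 54.9 and 53.9 in BMDM. The groups overlapped, and the log2 fold changes were 0.10 ± 0.21, 0.12 ± 0.21 and 0.03 ± 0.21 (edgeR quasi-likelihood adjusted p of 0.662 or more). Gm28875 was higher in interstitial than in BMDM by 0.88 ± 0.26 (adjusted p = 0.0145), a call lost without interstitial D, BMDM H or BMDM I, with an adjusted p up to 0.0644. Gm38079, a single exon of 154 bases that lies 0.232 kb downstream of the flagellin receptor gene Tlr5, had 19, 30 and 2 counts in interstitial, 2, 6 and 12 in lining and 6, 3 and 4 in BMDM. It was higher in interstitial than in BMDM by 4.14 ± 1.22 (adjusted p = 0.0154), which was lost without interstitial D or any BMDM library, up to 0.0786. Tlr5 itself was higher in interstitial than in BMDM by 4.55 ± 0.58 (adjusted p = 1.11e-04). Tlr5 was lower in lining than in interstitial, at -2.38 ± 0.54 (adjusted p = 0.0299), where Gm38079 differed by -0.93 without a call.

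lincRNAs that host small RNAs were mostly not called. Snhg6, the host of a small nucleolar RNA, was the exception. Its libraries read 3.88, 4.49 and 3.0 CPM in lining, 9.31, 7.92 and 9.13 in interstitial and 14.8, 15.4 and 18.1 in BMDM, and the 3 groups did not overlap. It was lower than in BMDM, at -2.05 ± 0.36 on the log2 scale in lining (edgeR quasi-likelihood adjusted p = 6.51e-04) and -0.88 ± 0.33 in interstitial (adjusted p = 0.0473). The interstitial call was lost without interstitial E or F and without any BMDM library, up to an adjusted p of 0.208. Between the sorted groups the difference was -1.17 ± 0.36 (adjusted p = 0.0903). Of the other 4 hosts of small nucleolar RNAs, Snhg10, Snhg12, Snhg20 and Epb41l4aos, none was called by edgeR in any comparison or had an unadjusted p under 0.05, and DESeq2 and limma-voom called Snhg12 in interstitial against BMDM.

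The hosts of microRNAs, Mir17hg and Mir142hg, were not called either, by edgeR, DESeq2 or limma-voom. Mir17hg had 0, 19 and 7 counts in lining, 0, 22 and 34 in interstitial and 62, 48 and 50 in BMDM. Mir142hg, the host of a microRNA of blood cells, had 12, 17 and 11 in lining, 1, 75 and 29 in interstitial and 71, 60 and 60 in BMDM. Zero counts of Mir17hg fell in lining A and interstitial D, the shallowest libraries. In all, 7 lincRNAs hold 23 mature microRNAs on their own strand. The leading microRNAs of these 2 hosts are printed from RefSeq (GRCm38.p6), with the seed (bases 2 to 8) in capitals, to show which of them share a target-pairing seed.
mmu-miR-17-5p: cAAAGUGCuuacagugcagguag
mmu-miR-20a-5p: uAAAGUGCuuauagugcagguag
mmu-miR-18a-5p: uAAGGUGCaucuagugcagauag
mmu-miR-19a-3p: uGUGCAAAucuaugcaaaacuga
mmu-miR-19b-3p: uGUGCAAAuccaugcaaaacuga
mmu-miR-92a-3p: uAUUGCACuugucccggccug
mmu-miR-142a-5p: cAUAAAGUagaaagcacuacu
mmu-miR-142a-3p: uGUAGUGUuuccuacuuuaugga
In Mir17hg, miR-17-5p and miR-20a-5p share AAAGUGC, and miR-19a-3p and miR-19b-3p share GUGCAAA. Poly(A) libraries count the host transcripts and not these mature microRNAs.

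Of 8 lincRNAs listed for a known role in immune cells, the cell cycle or other settings, 4 were called by edgeR in at least 1 comparison, namely Cyrano, Norad, Lockd and Ptgs2os2. The other 4 were called in none, as were 54.6% of all tested lincRNAs and 45.7% of all genes. AW112010, an RNA from which macrophages translate a short protein, had 4, 20 and 1 counts in lining, 7, 42 and 14 in interstitial and 28, 12 and 19 in BMDM, and its log2 fold change over BMDM was 1.88 ± 0.78 in interstitial (edgeR quasi-likelihood adjusted p = 0.0696). DESeq2 and limma-voom called that difference, as did edgeR in a fit of only the 6 libraries compared and in a fit without lining C. Gm14005, the Morrbid locus that controls survival of short-lived myeloid cells, differed between lining and interstitial by 1.70 ± 0.81 (adjusted p = 0.284). Pvt1, the neighbour of Myc, differed by 0.81 ± 0.86 there (adjusted p = 0.666), and Bvht, studied in the heart, by 0.37 ± 0.93 (adjusted p = 0.876).

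Lockd and Ptgs2os2 were called lower in lining than in BMDM. Lockd, which lies 3.58 kb downstream of the cell cycle inhibitor gene Cdkn1b, had 0, 18 and 0 counts in lining, 0, 10 and 13 in interstitial and 197, 148 and 158 in BMDM (log2 fold change -3.17 ± 1.03 in lining, edgeR quasi-likelihood adjusted p = 0.0252). The Lockd call was lost without lining A or C or any BMDM library, up to 0.0845. In interstitial the Lockd log2 fold change against BMDM was -2.55, which did not pass (adjusted p = 0.0514). That difference was called in 9 alternative runs, DESeq2 and limma-voom among them. Lining and interstitial differed by -0.63 at Lockd without a call, so a difference between the sorted groups is not shown. Cdkn1b itself differed by 0.15 ± 0.25 in lining (adjusted p = 0.654). The cell cycle markers given above also separated BMDM from the sorted libraries, and their part in the Lockd difference was not tested. Ptgs2os2, 50.8 kb from the prostaglandin synthase gene Ptgs2, had 58, 54 and 65 counts in BMDM, 0, 0 and 10 in interstitial and none in lining, which puts BMDM at least 15-fold above lining (adjusted p = 0.0254). That call was lost without lining B or any BMDM library, up to 0.0979.

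Most lincRNAs lay close to a coding gene. The nearest one was within 10 kb for 100 of the 162 and overlapped 27, with a median distance of 3.66 kb and a longest of 744 kb (Gm6634). Of the 100, 30 were head to head with the gene, 24 downstream of it on the same strand, 15 overlapping on opposite strands, 12 overlapping on the same strand, 10 tail to tail and 9 upstream on the same strand. In 30 pairs the start sites lay within 1 kb on opposite strands. For 4 lincRNAs on chromosome 8 the nearest model is Gm20388, a coding model of 4.43 Mb, and without it the nearest gene is Ccsap for 2810455O05Rik (0.046 kb), Klhdc4 for Gm42047, Sult5a1 for Gm4316 and Zfpm1 for Zfp469.

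Both the lincRNA and its neighbour within 10 kb were tested in 79 pairs. The log2 fold changes had the same sign in 50 pairs for lining against BMDM, in 50 for interstitial against BMDM and in 42 for lining against interstitial, and Pearson's r over these pairs was 0.55, 0.65 and 0.18. These are descriptions: pairs share libraries and, in part, DNA, and the BMDM libraries enter the first and second comparison. Of 24 called lincRNAs with such a neighbour in lining against BMDM, the neighbour was called in 15, in the same direction in 12 and the opposite in 3. In interstitial against BMDM these were 22, 16, 12 and 4. Of all genes 43.5% and 44.8% were called in these comparisons.

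Some lincRNAs and their neighbours were higher than BMDM together. Gm17501 starts 0.331 kb from Ccn1, a matrix protein gene, on the opposite strand, and Ccn1 was at 28.1 ± 7.5 CPM (SD, n = 3) in lining, 25.2 ± 4.7 in interstitial and 0 in BMDM. The fibroblast markers given above were also of higher summed level in every sorted library than in BMDM, and their part in this pair was not tested. Gm47675 lies 2.55 kb downstream of F13a1, which encodes a coagulation factor subunit and marks some tissue macrophages. F13a1 had 1322 ± 225 CPM in lining, 5687 ± 3081 CPM in interstitial and 5.61 ± 1.08 CPM in BMDM and was lower in lining than in interstitial, at -2.10 ± 0.34 (edgeR quasi-likelihood adjusted p = 0.00472), where Gm47675 differed by -2.67 ± 1.23 (adjusted p = 0.272). Gm44751 lies 0.590 kb downstream of Ctsc, a lysosomal protease gene, and read 4.85, 6.01 and 12.8 CPM in lining, 38.6, 15.7 and 11.7 in interstitial and 1.17, 0.795 and 0.830 in BMDM. It was higher than in BMDM by 3.05 ± 0.58 and 4.52 ± 0.59, and Ctsc by 1.24 ± 0.22 and 2.28 ± 0.23. Gm38832 lies 8.28 kb downstream of St3gal5, a ganglioside synthesis gene that was higher in lining than in interstitial by 2.23 ± 0.31 (adjusted p = 0.00170), and had 20, 47 and 0 counts in lining, 14, 0 and 12 in interstitial and 37, 39 and 25 in BMDM, with no call. For lincRNAs this close behind a gene on its strand, reads of a longer transcript of that gene cannot be told apart from reads of the lincRNA in gene counts.

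Gm9889 starts 0.078 kb from S1pr1, a sphingosine phosphate receptor gene, on the opposite strand. S1pr1 had 277 ± 57 CPM in lining, 226 ± 56 CPM in interstitial and 54.7 ± 4.0 CPM in BMDM, with a difference of 0.29 ± 0.20 between the sorted groups (edgeR quasi-likelihood adjusted p = 0.460), where Gm9889 stood at -3.90 ± 1.23. The difference between these 2 values was not tested. In lining against BMDM the 3 opposite pairs of calls were at Cyrano, C030034L19Rik and Gm42031. Cyrano was higher in lining where its tail-to-tail neighbour Oip5, a centromere protein gene, was lower, at -3.05 ± 0.76 (adjusted p = 0.00669). C030034L19Rik overlaps Zfp704 on the opposite strand, and Zfp704 was higher than in BMDM by 0.84 ± 0.17 in lining, where C030034L19Rik had no count. Zfp791, the neighbour of Gm42031, was called higher by 2.57 ± 0.90 in lining. In interstitial against BMDM the 4 opposite pairs were Cyrano with Oip5, Neat1 with Frmd8, Gm12319 with Pfn1 and Fam120aos with Fam120a. Gm12319 was higher by 2.97 ± 0.78 and Pfn1 lower at -0.65 ± 0.15, and Fam120aos higher by 2.09 ± 0.75 and Fam120a lower at -0.41 ± 0.13. The Gm12319 call was lost without BMDM G or I (adjusted p up to 0.0695), and the Fam120aos call without interstitial E or F or any BMDM library (up to 0.158).

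**Figure D4:**
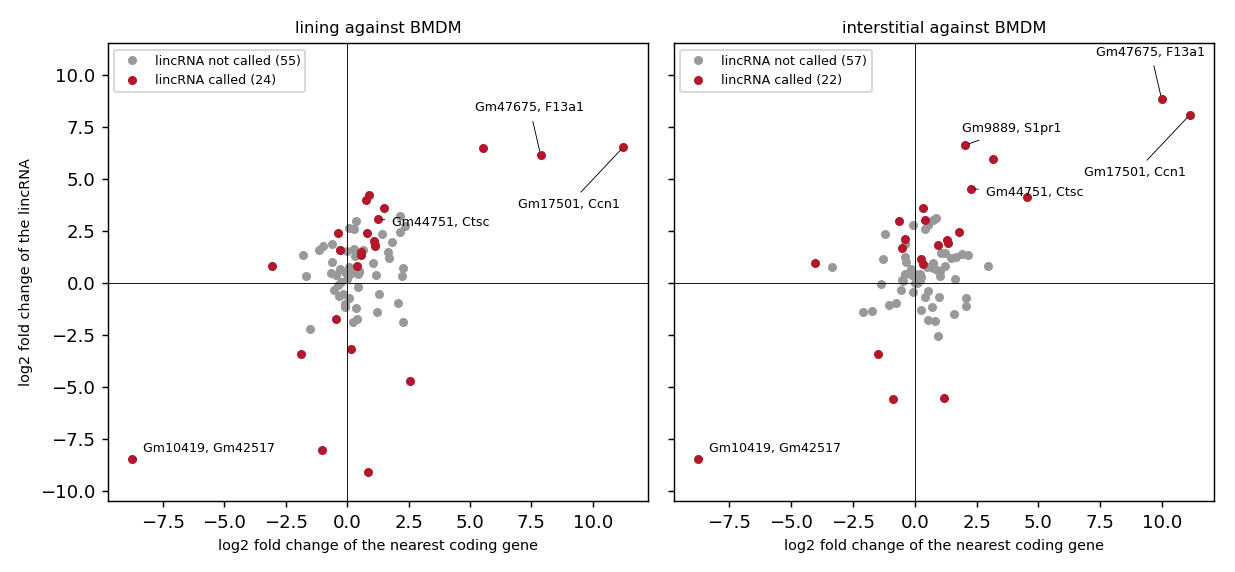
Log2 fold change of a lincRNA (vertical) against that of its nearest coding gene within 10 kb (horizontal), for the 79 pairs in which both were tested, against BMDM. Points in red are called lincRNAs, 24 in lining and 22 in interstitial, and the pairs named are among those given in the text.

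Spread between libraries differed by group. Over the 45 lincRNAs with at least 60 counts in every group, the median coefficient of variation between libraries was 34.9% in lining, 42.9% in interstitial and 9.49% in BMDM. The cause of this difference in spread was not tested. Counting error is larger in the shallower sorted libraries, where a floor of 3 counts corresponds to 0.269 to 1.37 CPM against 0.133 to 0.154 in BMDM. In the sorted groups the lincRNAs at 2 to 3 CPM therefore rest on few counts, and a library at 0 is not evidence that the RNA is absent. The 10 lincRNAs that were not tested (4930480K23Rik, 4930512J16Rik, A330069E16Rik, Gm14461, Gm15728, Gm26887, Gm26890, Gm29367, Gm47814 and Gpr141b) had 32 to 81 counts over the 9 libraries, and all reached the threshold in a single sorted group. Of the 152 tested, 83 (54.6%) were called in no comparison, beside 45.7% of all genes.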

How the data were processed

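The deposited values are raw, unscaled read counts, 1 per gene and library, made by the authors. featureCounts 1.6.1 counted reverse-stranded reads over Ensembl release 91 exons (GRCm38), per the file headers. Reads of overlapping genes on a strand, and of repeats, cannot be assigned with certainty. The submitters' processing notes also name STAR 2.5.4a, cutadapt 1.15, bcl2fastq 2.17.1.14, R 3.5.0 and DESeq2 1.20.0. Libraries were stranded, poly(A)-selected and read as single ends, per the labels, with no molecular identifiers, so intervals and floors (3 counts, 95% exact binomial) cover counting error only.

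Gene types came from GENCODE M21, and coordinates are those of the count table. The test was that of edgeR 4.0.16 (R 4.3.3): filterByExpr (minimum count 10, total 15), TMM, and a robust quasi-likelihood fit of all 9 libraries with 6 residual degrees of freedom, 2-sided, Benjamini-Hochberg over 12610 genes, called at 0.05. The ± after a log2 fold change is its SE, and after a level it is the SD over 3 libraries. Folds given as "at least" use 3 counts over the group, from plain library totals. DESeq2 1.42.0, limma 3.58.1 (voom), other filters and scaling, and leaving out libraries were alternatives. The fit was tested on simulated data, with 200 changed genes drawn from all those tested. Over the 3 comparisons it recovered 23.5 to 31% of genes changed 2-fold and 70 to 72.5% of those changed 4-fold. False calls numbered 2 to 16. A lincRNA that was not called may therefore still differ. Named lincRNAs were drawn from the 10 highest per kilobase in each group, the 6 most changed called ones in each direction without overlap, those in fixed lists, those nearest the threshold, those with strongly changed neighbours, and the 3 most like the leading ones. The members and lists were chosen with earlier results of these data known. Any others named, such as Gm44751 and Gm9889 beside their neighbours, were chosen after their values were seen.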

Additional observations from a re-analysis of the deposited data

Results flagged for a closer look

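AU020206 moved in opposite directions from BMDM in the 2 sorted groups: higher in lining, in 3 of 3 libraries, and lower in interstitial, in 3 of 3 libraries. The difference between these effects, which is the lining over interstitial log2 fold change of 3.75, was tested itself with edgeR's quasi-likelihood test. It remained past the threshold in every alternative run, and leaving out a library gave values of 3.48 to 3.88 with an adjusted p of at most 1.13e-04.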

How the results depend on the processing

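Of the 3 counts of called lincRNAs, the one for lining against interstitial moved most as a ratio. It was 14 with DESeq2, 8 with limma-voom, 4 with no filter on low counts and 1 in a fit of only the 6 libraries compared, against 2 as reported, and leaving out a library gave 1 to 3, with 1 in the fits without BMDM replicate G, H or I. The count for lining against BMDM was 57 as reported, 72 with DESeq2 and with limma-voom, 37 to 66 with a library left out (37 without BMDM replicate G) and 36 for lincRNAs of a mean of 5 CPM or more. The count for interstitial against BMDM was 54 as reported, 71 with DESeq2, 74 with limma-voom, 38 to 64 with a library left out and 30 at that higher threshold. Fewer lincRNAs enter at that threshold. The share called over all genes moved with the setting too. For lining against BMDM it was 43.5% as reported, 42.1% with DESeq2, 52.9% with limma-voom and 30.7% without BMDM G. For interstitial against BMDM these were 44.8%, 43.3%, 56.5% and 32.4%, and for lining against interstitial 5.79%, 9.83%, 7.61% and 3.60%. The last comparison gave 3.22% with no filter and 3.38% with only the 6 libraries compared. The cause of the other moves was not tested. The number of lincRNAs was 247 at a threshold of 1 CPM and 64 at 5 CPM. Leaving out lining A and interstitial D together, added after the data were seen, kept each count within 1.5 times. Of called lincRNAs, 35 of 57 and 34 of 54 kept the call in every fit with a library left out. No paired analysis was possible because the letters A to I differ in every group. Gene types of another GRCm38 annotation were not run, since the other sources used here have no lincRNA class. Depth limits the sorted groups most, and 10 lincRNAs were too sparse to test.

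Of 141 log2 fold changes of named lincRNAs, 30 had another sign under at least 1 alternative, and none of these was called either as reported or with the other sign. The cause was not tested. With a library left out, for lining against interstitial it was -1.39 to 7.39 for Gm9949, -0.042 to 0.34 for 1810058I24Rik, -0.88 to 0.052 for Mir142hg, -1.31 to 0.79 for Ino80dos, -1.52 to 0.41 for Snhg20, -0.53 to 0.78 for Epb41l4aos, -1.52 to 0.30 for Mir17hg, -0.44 to 0.21 for Neat1, -0.25 to 0.60 for Gm26532, -0.17 to 0.13 for Gm26917, -0.15 to 0.84 for Bvht, -6.84 to 0.41 for Lockd, -0.18 to 1.02 for Gm29291, -0.28 to 0.029 for Norad, -2.35 to 0.19 for Gm38079, -0.11 to 2.01 for Gm38832 and -0.45 to 3.07 for Gm42031. With a library left out, for lining against BMDM it was -1.24 to 3.65 for Gm9889, -2.53 to 1.0 for Gm9949, -0.16 to 0.71 for Mir142hg, -1.31 to 0.28 for Snhg20 and -0.54 to 0.88 for Snhg10. With a library left out, for interstitial against BMDM it was -0.27 to 0.13 for 1810058I24Rik, -0.50 to 0.66 for Snhg20, -1.0 to 0.83 for Mir17hg, -0.31 to 0.33 for Malat1, -0.38 to 0.46 for Pvt1, -0.10 to 0.066 for Gm42418 and -0.51 to 1.43 for Gm38832. With limma-voom it was -0.19 for Gm9949, 0.012 for Snhg20, -0.46 for Epb41l4aos (lining against interstitial), -2.07 for Gm9949, -0.13 for Mir142hg (lining against BMDM), -0.022 for 1810058I24Rik, -0.068 for Snhg20, -0.41 for Mir17hg, -0.35 for Pvt1, -1.69 for Gm38832 (interstitial against BMDM). Without lining A and interstitial D it was -0.081 for 1810058I24Rik, -0.0052 for Epb41l4aos, 0.040 for Neat1, -0.085 for Gm26917, -0.45 for Bvht, 0.43 for Gm38079 (lining against interstitial), -0.20 for Mir142hg, 0.32 for Snhg20 (lining against BMDM), -0.52 for Gm38832 (interstitial against BMDM). With no filter on low counts it was -0.0017 for 1810058I24Rik (lining against BMDM), -0.091 for 1810058I24Rik, -0.10 for Pvt1, -0.092 for Gm42418 (interstitial against BMDM), -0.0016 for Gm26917 (lining against interstitial). In a fit of only the 6 libraries compared it was 0.033 for Snhg20 (lining against BMDM). With DESeq2 and with relative log expression factors it was -0.015, and with a filter on mean CPM -0.012, for Gm26917 (lining against interstitial).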
